A study of Homo sapiens with 6 samples.

Results

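Integrins are receptors made of an alpha and a beta chain that hold a cell to the matrix or to other cells. The genes of 10 such chains, other than those of the platelet fibrinogen receptor, were followed here: ITGA2, ITGA4, ITGA5, ITGA6, ITGAV, ITGAM, ITGAX, ITGB1, ITGB2 and ITGB5. Accessible sites of the deposited table were assigned to a member when they overlapped its gene body extended by 50 kb on each side. This gave 194 of the 181135 sites, and 13 of them lay in the windows of both ITGAM and ITGAX, which are neighbours on chromosome 16. A filter on low counts left 190 sites for testing, and the 4 that failed it were 1 site of ITGA2, 2 of ITGA6 and 1 of ITGB5.

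The assay was ATAC-seq, in which a transposase cuts open DNA, and the cells were K562, a human line derived from a chronic myelogenous leukaemia. They received PMA, the protein kinase C activator phorbol 12-myristate 13-acetate, at 25 nM for 6 h or 72 h, or were taken at 0 h. Each time point had 2 libraries, and the names of all 6 carry the letters WT. The labels do not say whether these came from separate cultures, so p-values measure the spread between the libraries, which may be technical.

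The ITGB1 chain pairs with many alpha chains, among them those of ITGA2 (a collagen receptor), ITGA4 (bound by VCAM1 and fibronectin), ITGA5 (the classical fibronectin receptor) and ITGA6 (a laminin receptor). The ITGAV chain pairs with several beta chains, including that of ITGB5, and its receptors bind vitronectin and other proteins with an RGD motif. ITGB2 encodes the common beta chain of leukocyte integrins, which joins the ITGAM chain on neutrophils and macrophages and the ITGAX chain on myeloid and dendritic cells. PMA drives K562 cells towards a megakaryocyte-like, adherent state, and the collagen receptor chain of ITGA2 is also a platelet protein.

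Reads in sites summed to between 12258890 and 35548737 counts per library, with the shallowest library at 6 h. Libraries were scaled by TMM, a trimmed mean of log ratios, and levels are given as CPM, counts relative to the scaled library size. A site was called gained or lost at an adjusted p under 0.05 in edgeR's quasi-likelihood test with Benjamini-Hochberg adjustment over 177759 sites, and adjusted p-values given for sites are from this test. Start sites of the erythroid genes GATA1, TAL1 and EPOR stood at 13.1, 56.6 and 44.9 CPM at 0 h. None was found for KLF1 or for ALB, INS, CD3E and CD14 of other cell types, and PTPRC, a leukocyte gene, had one at 0.966 CPM.

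The promoters of 8 members were found in the RefSeq promoter table of GRCh38.p14, and ITGAX and ITGB2 were not in it. Shown are the 250 bases before the gene start of 4 members whose start sites behaved differently: ITGA2 rose late, ITGAM fell from 6 h, and ITGB1 and ITGAV had the strongest start sites of the 10 genes. Each window lies wholly inside the member's start site. They are ITGA2 at chr5:52989102-52989351 on the plus strand, ITGAM at chr16:31259725-31259974 on the plus strand, ITGB1 at chr10:32958231-32958480 on the minus strand and ITGAV at chr2:186589806-186590055 on the plus strand. Letters run 5′ to 3′ in the direction of the gene, and capitals mark GGGCGG, a box bound by Sp1 and KLF factors, on either strand.
ITGA2: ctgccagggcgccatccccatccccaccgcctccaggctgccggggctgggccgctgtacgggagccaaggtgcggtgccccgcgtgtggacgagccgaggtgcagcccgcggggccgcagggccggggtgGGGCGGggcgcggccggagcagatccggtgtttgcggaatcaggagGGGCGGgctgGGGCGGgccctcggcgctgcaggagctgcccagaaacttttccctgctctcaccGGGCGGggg
ITGAM: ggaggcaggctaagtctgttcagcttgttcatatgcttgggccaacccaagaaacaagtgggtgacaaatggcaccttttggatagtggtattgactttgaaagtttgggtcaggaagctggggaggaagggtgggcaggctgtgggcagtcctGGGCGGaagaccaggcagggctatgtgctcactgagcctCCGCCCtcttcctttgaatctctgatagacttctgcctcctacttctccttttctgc
ITGB1: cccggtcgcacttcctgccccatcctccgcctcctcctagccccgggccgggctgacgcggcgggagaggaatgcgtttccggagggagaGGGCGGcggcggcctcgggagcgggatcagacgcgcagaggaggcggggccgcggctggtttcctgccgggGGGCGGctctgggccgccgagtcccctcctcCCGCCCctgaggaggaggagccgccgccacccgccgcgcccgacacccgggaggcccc
ITGAV: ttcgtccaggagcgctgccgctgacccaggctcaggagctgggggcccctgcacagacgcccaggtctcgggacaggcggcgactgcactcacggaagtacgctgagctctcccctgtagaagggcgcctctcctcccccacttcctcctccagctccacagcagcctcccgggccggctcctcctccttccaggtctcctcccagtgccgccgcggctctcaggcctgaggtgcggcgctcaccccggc

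GGGCGG stood 4 times in the ITGA2 window, 3 times in that of ITGB1 and 2 times in that of ITGAM, with no overlap between matches, and not in that of ITGAV. It is held by 42.6% of the 35097 promoter windows of this length in the table. The windows of ITGA2, ITGB1 and ITGAV were rich in G and C (76.4%, 78.4% and 70.8%), and that of ITGAM less so (53.2%). The other letters searched on both strands were TGANTCA for AP-1 (in 6.57% of all windows), AGATAA for GATA factors (9.17%), CCGGAAGT for ETS factors (3.42%), TGTGGT for RUNX factors (11.0%), and the core box TATAAA (10.7%). None of these was in the 4 printed windows, which says only that those letters do not occur there.

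Over all 10 genes, gains outnumbered losses at both times. At 6 h, 56 of the 190 tested sites were gained and 25 lost, against 23.4% gained and 16.7% lost of all sites. At 72 h, 91 were gained and 49 lost, against 38.2% and 29.2% of all sites. Called in either direction were 42.6% of member sites at 6 h and 73.7% at 72 h, with 40.1% and 67.4% of all sites, so the share called was near that of the whole table. The median log2 change of member sites was 0.20 at 6 h and 0.62 at 72 h, and over all sites it was 0.05 and 0.29.

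The balance of gains and losses moved with the scaling of the libraries. At 72 h, 65.0% of called member sites were gained under TMM, and between 58.0% (RLE size factors) and 91.5% (TMM from sites with a peak in all 6 libraries) under the other scalings. The median change of all sites at 72 h ran from −0.04 with loess offsets to 1.26 with those shared peaks. Over all sites the share was 56.6% under TMM, 51.6% with RLE size factors and 84.0% with shared peaks. Under all 5 scalings, 65 of the 190 member sites were gained and 6 lost at 72 h, against 26.6% and 9.28% of all sites. At 6 h these were 48 and 10, against 18.5% and 8.50%. The 6 sites lost at 72 h under every scaling were 3 of ITGAM, 2 of ITGB1 and 1 of ITGA2.

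**Figure D1:**
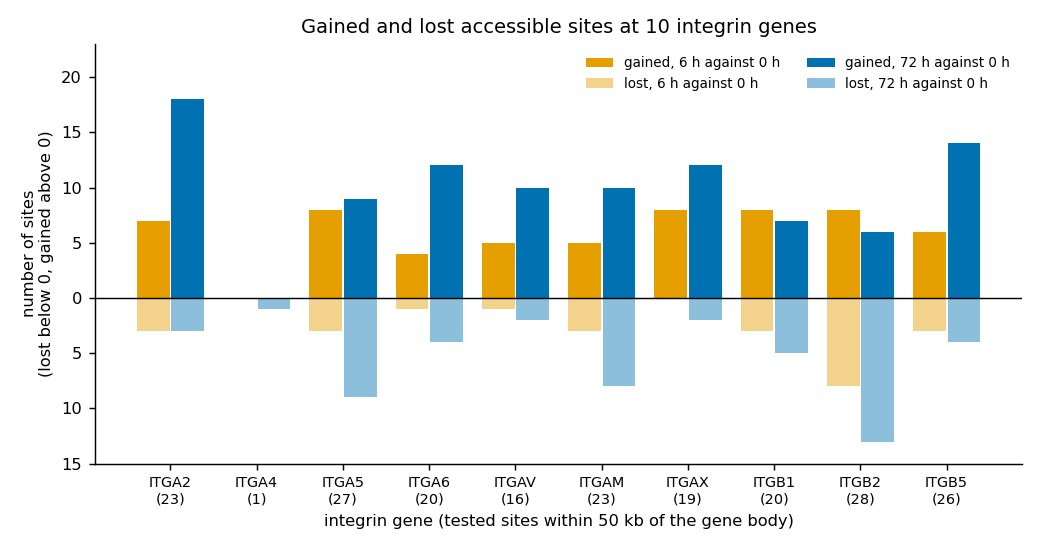
Number of gained (above 0) and lost (below 0) sites at each integrin gene, at 6 h and 72 h of PMA against 0 h, with the number of tested sites in brackets. ITGA2 had the most gained sites at 72 h, 18 of 23, and ITGB2 the most lost, 13 of 28.

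Members differed in number of sites and in direction. Gained and lost sites at 72 h were 18 and 3 of 23 for ITGA2, 12 and 4 of 20 for ITGA6, 12 and 2 of 19 for ITGAX, 10 and 2 of 16 for ITGAV and 14 and 4 of 26 for ITGB5. Gains and losses were more even for ITGAM (10 and 8 of 23), ITGA5 (9 and 9 of 27) and ITGB1 (7 and 5 of 20). With loess offsets ITGAM had 4 gained and 7 lost sites and ITGAV 4 and 0, and with RLE size factors ITGB1 had 6 and 7 and ITGA5 8 and 10. ITGB2 had more losses than gains, 6 gained and 13 lost of 28, and that order turned under total counts (8 and 7) and shared peaks (11 and 1). ITGA4 had a single site in a window of 181.7 kb, and it was lost. Only 5.246% of 20033 protein-coding genes had at most 1 site in such a window.

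Timing also varied. Of the member sites, 49 were gained at 6 h and still gained at 72 h, and 42 of the 190 were gained at 72 h only, classes that hold 19.7% and 18.3% of all 177759 sites. Sites lost at both times numbered 22 and those lost only at 72 h numbered 26, against 14.2% and 14.8% of all sites. Gains and losses seen at 6 h alone were few, 6 and 3, against 3.46% and 2.20% of all sites. ITGA2 and ITGA6 gained mostly late, with 11 and 8 late gains beside 7 and 4 early ones that were kept. ITGA5, ITGAX, ITGB1 and ITGB2 gained mostly early, with 7, 8, 6 and 6 kept gains beside 2, 4, 1 and 0 late ones. These classes come from comparisons that share the 0 h libraries. Between 6 h and 72 h, 44 member sites rose and 38 fell, against 22.0% and 21.0% of all sites, and ITGA2 (14 and 2) and ITGA6 (11 and 3) held most of the rises.

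Under TMM, the only scaling for which these counts are given, losses per site were most frequent at gene ends. At these sites, no more than 1000 bases from an end of any protein-coding gene, 8 of the 34 member sites were gained and 18 lost at 72 h, against 12.3% and 68.7% of all sites there. Away from gene ends, 83 of 156 were gained and 31 lost, against 41.3% and 24.5%. Many of the strong lost sites belonged to a neighbour. The strongest 0 h site lay in MOCS2 for ITGA2, in PDK1 for ITGA6, in GPR84 for ITGA5 and in PTTG1IP for ITGB2. With loess offsets the 72 h changes of those in PDK1, GPR84 and PTTG1IP were 0.29, −0.17 and −0.30, and none was called lost.

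The site at each gene start lies closest to the promoter at that start. ITGAV, ITGB1 and ITGB5 also have RefSeq starts further inside the gene, which these sites do not cover. At 72 h, 3 start sites were called higher (ITGA2, ITGAX and ITGB2) and 5 lower (ITGA4, ITGA5, ITGAV, ITGAM and ITGB1), and those of ITGA6 and ITGB5 were not called. The ITGA5 start site was higher, though not called, when scaled by shared peaks. Of 11431 protein-coding start sites, 5.34% were higher and 84.9% lower at 72 h under TMM, with a median log2 change of −1.32. A fall was thus the usual course under that scaling, and these shares are given for TMM alone. With loess offsets the 72 h changes of the ITGAV and ITGB1 start sites were −0.15 and −0.19, neither called. At 6 h, ITGAX and ITGB2 were higher and ITGAV and ITGAM lower, against 4.51% higher and 46.5% lower of all start sites.

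Per kb of site, ITGAV led the start sites at 0 h with 70.8 ± 7.06 CPM per kb (SD, n = 2), followed by ITGB1 at 44.7 ± 5.96 and ITGA5 at 15.7 ± 1.98. The libraries of these 3 did not overlap with those of the next in order. ITGA6, ITGAM, ITGAX and ITGA2 followed at 8.37, 7.39, 5.42 and 5.18 CPM per kb, and each overlapped with its neighbour in that order. ITGA4, ITGB2 and ITGB5 were lowest, at 4.49, 3.49 and 3.45 CPM per kb, and the last 2 overlapped. At 72 h ITGAV still led at 25.5 ± 3.14, while ITGB2 at 15.7 ± 2.07, ITGB1 at 15.3 ± 2.01 and ITGAX at 14.3 ± 0.0656 came next, and ITGB2 overlapped with ITGB1, and ITGB1 with ITGAX. ITGB2 thus moved from rank 9 to rank 2 of the 10.

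**Figure D2:**
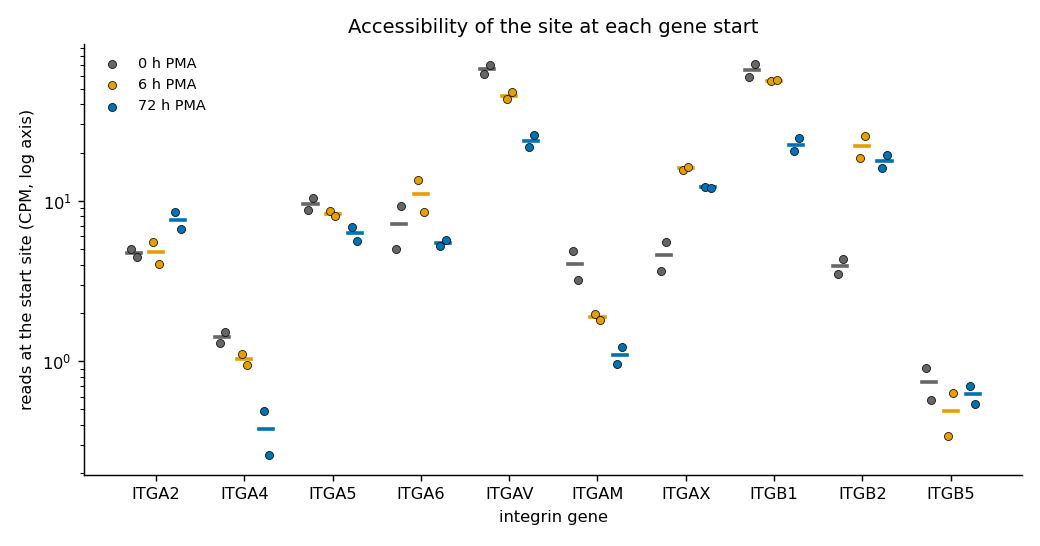
Accessibility at the start site of each gene in CPM (log axis), with 1 point per library and a bar at the mean of the 2 libraries of a time point. At ITGAX and ITGB2 all 6 h and 72 h libraries lie above the 0 h libraries, and at ITGA2 those of 72 h do. At ITGA4, ITGA5, ITGAV, ITGAM and ITGB1 all 72 h libraries lie below the 0 h libraries.

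ITGA2, the collagen receptor chain, opened along its whole length. All 14 tested sites in the gene body were gained at 72 h (13 with RLE size factors or loess offsets), 5 of them already at 6 h, with log2 changes from 0.68 to 4.13 and none lost. The largest gain lay 15782 bases after the start (chromosome 5, 53004828 to 53005441) and read 0.649 and 0.287 CPM at 0 h, 2.81 and 1.33 at 6 h, then 8.53 and 7.19 at 72 h. The rule that named this site required its 0 h and 72 h libraries not to overlap, and both 6 h libraries lay between them. The change was 2.08 ± 0.48 (log2, SE) at 6 h (adjusted p = 0.00141) and 4.13 ± 0.41 at 72 h (adjusted p = 2.08e-08). As the site was picked for its 72 h gain, the latter value is not independent evidence.

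Another site of ITGA2, 19557 bases after the start (53008569 to 53009250), had most of its gain by 6 h. Its libraries read 0.324 and 0.860 CPM at 0 h, 5.37 and 7.10 at 6 h, with 9.35 and 8.65 at 72 h. The rise was 3.34 ± 0.36 at 6 h and 3.84 ± 0.34 at 72 h, and the difference between 6 h and 72 h was 0.50 ± 0.25 (adjusted p = 0.114). Close to the promoter, a site 1357 bases before the start followed the same course, from 0.454 and 0.526 CPM to 5.12 and 4.12 and then 6.77 and 6.06.

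The start site of ITGA2 (52988937 to 52989852), which carries the 4 GGGCGG boxes shown above, moved far less than the sites around it. It read 4.99 and 4.49 CPM at 0 h, 5.54 and 4.02 at 6 h, then 8.53 and 6.69 at 72 h. Its rise of 0.68 ± 0.25 at 72 h (adjusted p = 0.0191) was not called with RLE size factors (adjusted p = 0.0785), in DESeq2 (adjusted p = 0.141), without replicate 2 of 0 h (adjusted p = 0.0853) or without replicate 1 of 72 h (adjusted p = 0.212). At 72 h all 3 losses in the ITGA2 window lay beyond the gene, while at 6 h there were 2 beyond it and 1 upstream. A site 129691 bases after the start (53118646 to 53119440) fell from 7.98 and 6.64 CPM to 2.30 and 2.19 at 6 h, with 1.14 and 1.11 at 72 h, by 2.69 ± 0.29 (adjusted p = 4.96e-08).

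ITGA6, the laminin receptor chain, gained upstream of its start. All 7 sites there were gained at 72 h and 2 at 6 h, and all 7 were higher at 72 h than at 6 h. At 10845 bases before the start (chromosome 2, 172416052 to 172416931) the libraries read 0.519 and 0.382 CPM at 0 h, 0.938 and 1.65 at 6 h, then 5.63 and 7.92 at 72 h. Its gain was 3.92 ± 0.39 at 72 h (adjusted p = 2.26e-08) and 1.64 ± 0.46 at 6 h (adjusted p = 0.00706), and the latter was not called without replicate 2 of 0 h (adjusted p = 0.0622) or replicate 2 of 6 h (adjusted p = 0.221). The strongest of the 7 at 72 h, 31623 bases before the start, stood at 1.56 and 1.20 CPM at 0 h, 1.36 and 0.539 at 6 h, with 11.3 and 14.3 at 72 h.

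**Figure D3:**
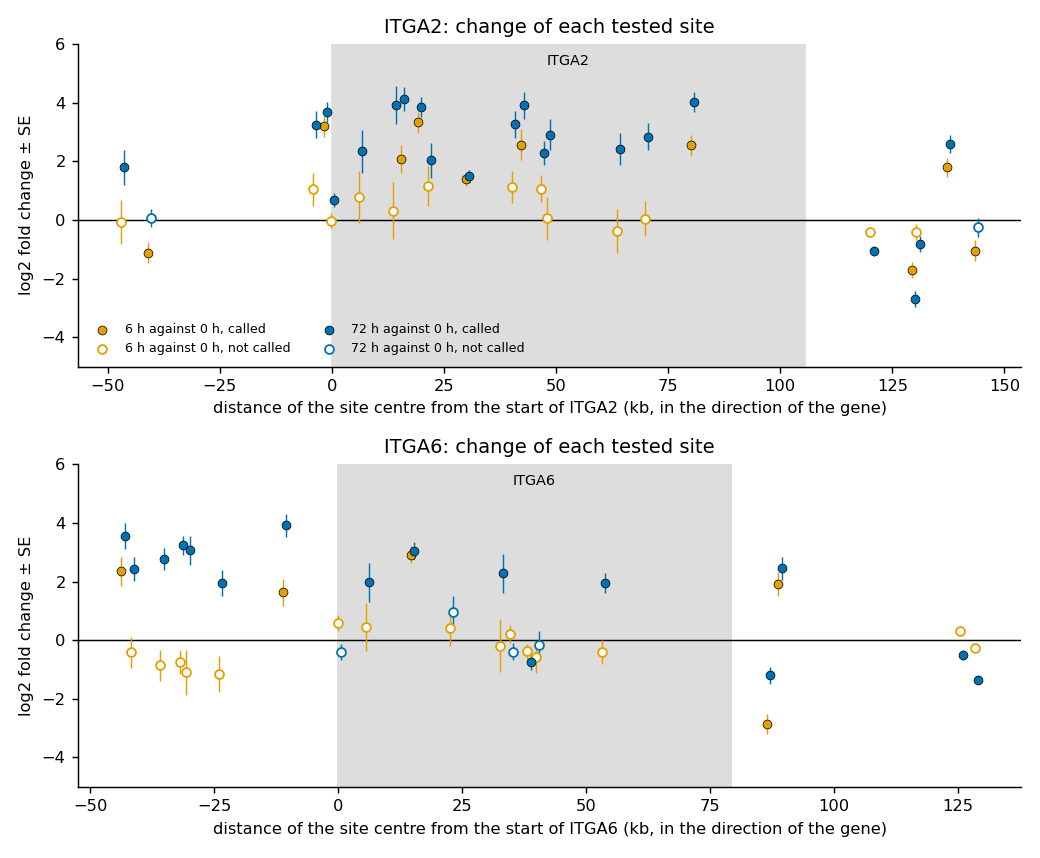
Log2 change with its SE of each tested site around ITGA2 and ITGA6, at 6 h and 72 h against 0 h, by distance of the site centre from the gene start (kb). Grey marks the gene body and open points were not called. In the ITGA2 body every 72 h point is filled and above 0, and upstream of ITGA6 the 72 h points are all above 0 while 5 of the 7 points at 6 h are open.

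Inside ITGA6 a site 14921 bases after the start (172441876 to 172442639) opened early and stayed, at 2.14 and 1.05 CPM at 0 h, 11.9 and 11.4 at 6 h, then 12.2 and 13.4 at 72 h. Its change was 2.91 ± 0.28 at 6 h and 3.05 ± 0.28 at 72 h. Downstream of the gene, a site at 86744 bases from the start (172513756 to 172514404) dipped and partly returned, from 9.21 and 5.83 CPM to 0.853 and 1.11 at 6 h, with 3.54 and 2.95 at 72 h. The fall at 6 h was −2.87 ± 0.33 (adjusted p = 5.65e-07), and from 6 h to 72 h the site rose by 1.66 ± 0.33 (adjusted p = 0.000423).

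The start site of ITGA6 (172427165 to 172428019) was not called against 0 h at either time. It stood at 4.99 and 9.32 CPM at 0 h, 13.6 and 8.52 at 6 h, then 5.19 and 5.68 at 72 h, and the libraries of 0 h and 6 h overlapped. From 6 h to 72 h it was called lower, by −0.99 ± 0.27 (adjusted p = 0.0052). Its change of 0.58 ± 0.28 at 6 h was called with total counts (adjusted p = 0.0418) and shared peaks (adjusted p = 0.0136), but not with RLE size factors or loess offsets. The largest loss in the window was at the PDK1 start (172555350 to 172556724), from 87.8 and 107 CPM to 38.7 and 38.1 at 72 h. That change was −1.34 ± 0.14, but 0.29 with loess offsets.

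ITGA5, the fibronectin receptor chain, had its largest single gain inside the gene body, where 1 of 5 sites was gained and 3 were lost at 72 h. The gained site, 7653 bases after the start (chromosome 12, 54411169 to 54412057), read 3.44 and 4.78 CPM at 0 h, 22.3 and 25.3 at 6 h, with 26.4 and 33.4 at 72 h. It had risen by 2.52 ± 0.21 at 6 h (adjusted p = 5.85e-09) and 2.85 ± 0.21 at 72 h (adjusted p = 5.35e-10). Upstream of the start, 6 of 8 sites were gained at 72 h (4 with loess offsets) and 4 at 6 h, among them the site at 4231 bases before it, which peaked at 6 h (7.59 and 10.5 CPM at 0 h, 21.7 and 31.6 at 6 h, 13.7 and 15.9 at 72 h).

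The ITGA5 start site (54418940 to 54419550) was lower at 72 h, at 6.90 and 5.61 CPM against 8.76 and 10.5 at 0 h. This change of −0.62 ± 0.22 (adjusted p = 0.0162) was not called without replicate 2 of 0 h (adjusted p = 0.11) or replicate 2 of 72 h (adjusted p = 0.181), with total counts or with loess offsets, and it was 0.35 with shared peaks. The largest loss at 72 h lay in GPR84 (54358923 to 54359946), from 59.3 and 59.5 CPM to 20.1 and 23.4, a change of −1.45 ± 0.15 that was −0.17 and not called with loess offsets.

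ITGA4, the chain that binds VCAM1, showed little accessibility. Its single site lay 113 bases after the gene start (chromosome 2, 181457318 to 181457632), held 52 reads over both 0 h libraries and was in a deposited peak of 1 library. It read 1.30 and 1.53 CPM at 0 h, 1.11 and 0.95 at 6 h, then 0.491 and 0.259 at 72 h. The fall of −1.92 ± 0.48 at 72 h (adjusted p = 0.00125) was −0.95 with shared peaks (adjusted p = 0.0864).

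ITGAV had the strongest start site of the 10 per kb, and that site fell. It lay at chromosome 2, 186589560 to 186590491, and read 61.3 and 70.6 CPM at 0 h, 43.0 and 47.4 at 6 h, with 21.7 and 25.8 at 72 h, with no overlap between time points. Its change was −0.54 ± 0.15 at 6 h (adjusted p = 0.00583) and −1.48 ± 0.15 at 72 h (adjusted p = 3.01e-08). The 6 h call was not made with shared peaks (adjusted p = 0.165), with loess offsets (adjusted p = 0.271), without replicate 2 of 0 h (adjusted p = 0.0527) or without replicate 1 of 6 h (adjusted p = 0.0585). With loess offsets, which follow the trend of the change with signal strength, the change at 72 h was −0.15 (adjusted p = 0.329).

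Upstream of ITGAV, 6 of 7 sites were gained at 72 h (3 with loess offsets) and 1 at 6 h. The largest gain lay 107707 bases after the start, inside the neighbour FAM171B (186697451 to 186698075), at 0.324 and 0.717 CPM at 0 h, 6.99 and 4.06 at 6 h, then 5.04 and 4.12 at 72 h, a rise of 3.28 ± 0.41 and 3.06 ± 0.40. ITGAV also held the only member site called in opposite directions, higher by 1.17 at 6 h and lower by −0.53 at 72 h, against 0.501% of all sites in that class.

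The leukocyte chains ITGAM and ITGAX lie head to tail, and their start sites moved in opposite directions. The ITGAM start site (chromosome 16, 31259645 to 31260190) fell from 4.86 and 3.20 CPM at 0 h to 1.96 and 1.81 at 6 h, with 0.956 and 1.23 at 72 h. That of ITGAX (31354634 to 31355480) rose from 3.63 and 5.54 CPM to 15.5 and 16.3 at 6 h, then 12.2 and 12.1 at 72 h. In neither did the 0 h libraries overlap with the later ones.

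The ITGAM fall was −1.1 ± 0.34 at 6 h (adjusted p = 0.0137) and −1.87 ± 0.33 at 72 h (adjusted p = 4.68e-05). The 72 h call was made under all 5 scalings, while the 6 h call was not made with shared peaks, without replicate 1 of 0 h (adjusted p = 0.131) or without replicate 2 of 6 h (adjusted p = 0.0943). The ITGAX rise was 1.78 ± 0.23 at 6 h (adjusted p = 1.81e-06) and 1.38 ± 0.22 at 72 h (adjusted p = 1.24e-05), called under all 5 scalings and without each library.

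Between the genes, 2 sites in both windows carried the largest gains. At 4791 bases before the ITGAX start (31350036 to 31350734) the libraries read 0.908 and 0.860 CPM at 0 h, 2.56 and 5.29 at 6 h, with 12.4 and 14.4 at 72 h, a rise of 2.23 ± 0.36 and then 3.92 ± 0.33. At 2993 bases before it (31351867 to 31352500) they read 1.23 and 1.20, then 8.27 and 11.4, then 9.41 and 9.10, a rise of 3.04 ± 0.29 that stood at 2.93 ± 0.28 at 72 h. The farther site thus kept rising after 6 h, by 1.68 ± 0.27, and the nearer one did not (−0.11 ± 0.22, adjusted p = 0.718). Beyond the end of ITGAX, 5 of 6 sites were gained at both times.

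**Figure D4:**
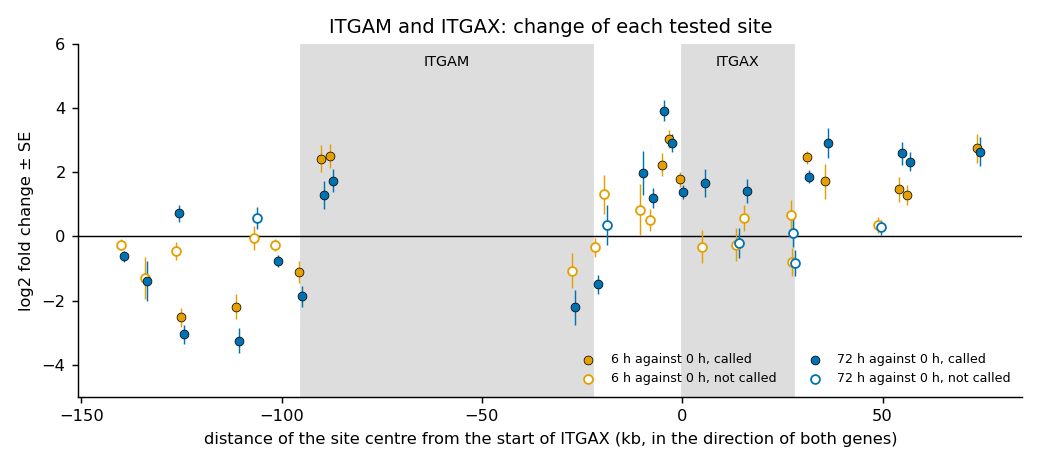
Log2 change with its SE of each tested site around ITGAM and ITGAX, at 6 h and 72 h against 0 h, by distance from the ITGAX start (kb). Grey marks the 2 gene bodies and open points were not called. Large losses lie before ITGAM, where 5 of 7 sites were lost at 72 h, and large gains lie just before the start of ITGAX and beyond its end.

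Upstream of ITGAM, 5 of 7 sites were lost at 72 h and 1 was gained (2 and 2 with total counts or shared peaks). The site 15789 bases before its start (31243865 to 31244507) fell from 11.5 and 5.93 CPM at 0 h to 3.15 and 1.11 at 6 h, then 1.11 and 0.707 at 72 h, by −3.25 ± 0.40 at 72 h (adjusted p = 3.34e-07). The site in TRIM72 (31229967 to 31230981) fell from 14.7 and 9.51 CPM to 1.53 and 2.44 at 6 h, with 1.65 and 1.25 at 72 h, by −3.05 ± 0.29. Both losses were called at both times under all 5 scalings. Inside ITGAM 2 sites, 5513 and 7609 bases after the start, went the other way, and the second rose from 1.43 and 0.526 CPM to 5.37 and 5.35 at 6 h, then 2.97 and 3.28 at 72 h.

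ITGB2, the partner chain of both, opened at its start. Its start site (chromosome 21, 44927266 to 44928391) lay within 1000 bases of the gene start, inside the gene, and read 3.50 and 4.35 CPM at 0 h, 18.4 and 25.2 at 6 h, with 16.1 and 19.4 at 72 h. The 0 h libraries were far below all others, and the rise was 2.47 ± 0.22 at 6 h (adjusted p = 1.73e-08) and 2.16 ± 0.22 at 72 h (adjusted p = 2.95e-08), called under all 5 scalings. A weaker site further inside (44926373 to 44926956) rose from 0.454 and 1.43 CPM to 2.81 and 3.64 and then 5.35 and 5.42.

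The losses that made up most calls at ITGB2 were chiefly downstream, where 7 of 10 sites were lost at 72 h and 1 gained (1 and 4 with shared peaks). The largest was at a boundary of the PTTG1IP gene (44873151 to 44874410). It read 75.2 and 69.1 CPM at 0 h, 49.0 and 44.3 at 6 h, then 24.1 and 21.8 at 72 h. Its change of −1.65 ± 0.15 at 72 h was −0.30 with loess offsets (adjusted p = 0.0607). A site 47663 bases from the ITGB2 start (44880755 to 44881549) fell by −1.34 ± 0.28 at 6 h, from 10.8 and 7.98 CPM to 4.18 and 3.33, and stood at 4.37 and 2.73 at 72 h.

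ITGB1, the common beta chain of the matrix receptors, gained early and upstream while its start fell late. The start site (chromosome 10, 32957351 to 32958817) read 59.3 and 71.7 CPM at 0 h, 55.8 and 56.5 at 6 h, with 20.3 and 24.5 at 72 h. The change was −0.22 ± 0.15 at 6 h (adjusted p = 0.245) and −1.55 ± 0.15 at 72 h (adjusted p = 1.74e-08), but −0.19 at 72 h with loess offsets (adjusted p = 0.217).

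Upstream of ITGB1, 7 of 9 sites were gained at 6 h and 1 lost, and 5 were gained and 2 lost at 72 h. At 34785 bases before the start (32992621 to 32993409) the libraries read 1.1 and 1.15 CPM at 0 h, 3.07 and 3.45 at 6 h, then 11.1 and 11.5 at 72 h, a rise of 1.55 ± 0.30 and then 3.32 ± 0.28. At 25240 bases before it (32983206 to 32983735) they read 1.04 and 1.39, then 8.78 and 11.7, then 8.14 and 9.26, a rise of 3.07 ± 0.29 and 2.82 ± 0.28. The farthest, 47372 bases before the start, was highest at 6 h, with 8.11 and 10.9 CPM at 0 h, 40.3 and 39.5 at 6 h, with 18.6 and 21.5 at 72 h. In the gene body, a site 9596 bases after the start (32948338 to 32948930) fell from 5.97 and 3.20 CPM to 1.11 and 0.855 at 6 h, then 1.24 and 0.707 at 72 h, by −2.22 ± 0.38 at 72 h.

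**Figure D5:**
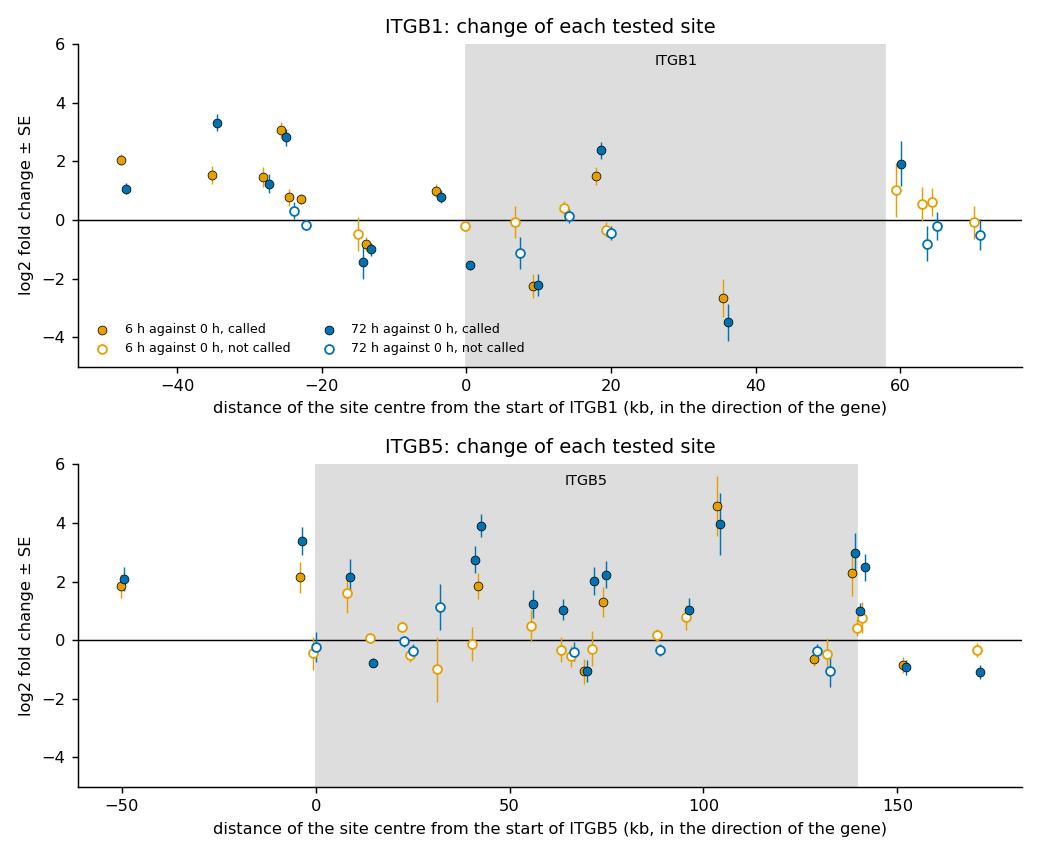
Log2 change with its SE of each tested site around ITGB1 and ITGB5, at 6 h and 72 h against 0 h, by distance from the gene start (kb). Grey marks the gene body and open points were not called. Upstream of ITGB1 the points at 6 h are mostly filled and above 0, and in the ITGB5 body 10 of 19 sites were gained at 72 h.

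ITGB5, a partner of the ITGAV chain, gained within its long gene body, where 10 of 19 sites were gained and 2 lost at 72 h (8 and 6 with RLE size factors). The largest gain named by the rule lay 42233 bases after the start (chromosome 3, 124858820 to 124859550), at 0.195 and 0.956 CPM at 0 h, 1.62 and 2.66 at 6 h, with 8.66 and 9.92 at 72 h. It had risen by 3.90 ± 0.39 at 72 h (adjusted p = 2.46e-08) and by 1.86 ± 0.44 at 6 h, where the call was not made without replicate 2 of 6 h (adjusted p = 0.084). A site 3764 bases before the start, at the end of MUC13 (124904783 to 124905582), rose from 0.130 and 0.382 CPM to 1.02 and 1.33 and then 2.71 and 3.02.

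The site nearest the ITGB5 start (124901535 to 124901749) was barely covered, with 26 reads at 0 h and no deposited peak, and no change was detectable at this depth. RefSeq also lists ITGB5 starts at 124887684 and 124887365, inside a site 14305 bases after this gene start. That site was the strongest of the window at 0 h, with a mean of 29.6 CPM, and stood at 17.5 at 72 h. Its change was −0.76 at 72 h (adjusted p = 0.000225), and it was not called lost with total counts or shared peaks. Losses were modest: a site at a boundary of the UMPS gene (124730074 to 124731079) fell by −1.09 ± 0.24 at 72 h. That change was −0.12 with shared peaks (adjusted p = 0.661). A site in the gene body (124831664 to 124832112) fell by −1.06 ± 0.42 at 6 h, at 3.24 and 1.58 CPM against 1.11 and 1.14, and this was barely called (adjusted p = 0.0464). The call was not made with total counts (adjusted p = 0.0859), with shared peaks (adjusted p = 0.162), in DESeq2 (adjusted p = 0.0576), with the replicate block (adjusted p = 0.0564), with the compared groups alone (adjusted p = 0.0578) or, among the fits that leave out a library, without any but replicate 2 of 0 h (adjusted p up to 0.459).

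Counts of all sites in a window were also summed for each of 19307 protein-coding genes and tested in the same way. The ITGAX locus rose from 33.7 and 37.6 CPM to 78.5 and 103 at 6 h, then 95.5 and 96.1 at 72 h, by 1.35 ± 0.12 and 1.42 ± 0.11, and it was called under all 5 scalings at both times. The ITGA2 locus rose from 67.7 and 65.3 CPM to 120 and 107 at 72 h, by 0.77 ± 0.10 (adjusted p = 5.53e-07), also under all 5 scalings. Of all loci, 61.6% were called at 6 h and 87.1% at 72 h, the latter as 15.8% higher and 71.3% lower.

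Of the other members, ITGA4 (−1.93), ITGAV (−0.39), ITGA6 (−0.24) and ITGB2 (−0.55) were called lower at 72 h on the log2 scale. ITGA5, ITGB1, ITGAM and ITGB5 were not called under TMM. The sums of ITGA5 and ITGB1 were called lower with RLE size factors (−0.35 and −0.38), and also in DESeq2 and with the replicate block. With total counts, shared peaks or loess offsets these sums of ITGA5 and ITGB1 were called higher. Such sums are led by the strongest sites of a window. At 0 h the site at the PDK1 start held 64.2% of the ITGA6 sum, and the ITGAV start site 57.6% of that of ITGAV. The ITGA6 sum fell although more of its sites were gained than lost. The median over all loci was −0.72 at 72 h under TMM and 0.25 with shared peaks. The sums of ITGA6 and ITGAV turned higher with total counts, shared peaks or loess offsets, and that of ITGB2 with shared peaks or loess offsets. The ITGA6 call was also not made without replicate 2 of 0 h (adjusted p = 0.113) or replicate 1 of 72 h (adjusted p = 0.133). Under total counts, shared peaks and loess offsets, ITGAM was called higher at 0.50, 0.97 and 0.69 and ITGB5 at 0.52, 0.99 and 0.74, beside 0.00 and 0.03 under TMM. At 6 h ITGA5 (0.30), ITGB1 (0.43) and ITGAX were called higher and 0 lower, against 14.8% and 46.9% of all loci. The ITGA5 call was not made with RLE size factors (0.16, adjusted p = 0.263), in DESeq2 (adjusted p = 0.284), without replicate 1 of 0 h (adjusted p = 0.155) or without replicate 2 of 6 h (adjusted p = 0.523). With RLE size factors ITGB2 was called lower at 6 h (−0.34, adjusted p = 0.00457). Between 6 h and 72 h, 7 member loci were called, 1 higher (ITGA2) and 6 lower, against 80.8% called, 12.6% higher and 68.2% lower of all loci.

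Other genes of the pathway were read the same way, from lists of 14 other integrins, 15 ligands and 16 activators and adaptors. Of the other integrins, 6 loci were higher and 5 lower at 72 h, against 15.8% and 71.3% of all loci, with a median of −0.04 beside −0.72 for all loci, and with shared peaks or loess offsets 11 were higher and 0 lower (medians of 0.93 and 0.74). ITGB6, a partner of the ITGAV chain, rose most, by 2.84 ± 0.12 (14.2 to 100.5 CPM), and ITGA1, a collagen receptor chain whose gene neighbours ITGA2 and shares part of its window, rose by 0.70 ± 0.09. ITGAL, another ITGB2 partner on leukocytes, fell by −1.11 ± 0.09, a fall that was −0.14 with shared peaks and −0.10 with loess offsets and called in neither.

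Of the ligand loci, 4 of 15 were higher and 11 lower at 72 h, near the 71.3% of all loci that were lower, with a median of −0.92. With shared peaks 7 were higher and 2 lower, with a median of 0.05. THBS1, which encodes the platelet matrix protein thrombospondin, rose by 2.72 ± 0.14 (9.64 to 64.0 CPM), COL4A1, a basement membrane collagen, by 1.97 ± 0.12, and LAMC1, a laminin chain, by 1.75 ± 0.09, and these 3 rises were called under all 5 scalings. VCAM1, the ligand of the ITGA4 receptor, fell by −2.22 ± 0.17, also called under all 5. FN1, the ligand of the ITGA5 receptor, fell by −1.04 ± 0.11, and this was −0.07 and not called with shared peaks. Start sites of the risen loci differed at 72 h: that of THBS1 rose by 2.22, and that of LAMC1 was not called (0.03). COL4A1 had no tested start site.

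Among the activators and adaptors, 3 of 16 loci were higher and 10 lower at 72 h, near the 15.8% and 71.3% of all loci, with a median of −0.30. That order turned with shared peaks (13 higher and 1 lower, median 0.67) and loess offsets (10 and 0, median 0.39), and also with total counts (7 and 6). APBB1IP, which brings talin to integrins in blood cells, rose by 1.72 ± 0.13, and TLN2, a talin, by 1.52 ± 0.09. These are sums over windows: at 72 h the TLN2 start site fell by −1.46 ± 0.20, and that of APBB1IP was not called (−0.15). FERMT3, the kindlin of blood cells, fell by −1.24 ± 0.11, and its partner in activation TLN1 by −0.90 ± 0.10. With loess offsets FERMT3 stood at −0.09 and TLN1 at 0.06, neither called, and with shared peaks TLN1 was at 0.07. Of the 12 start sites found for this list, 11 were lower and 0 higher at 72 h under TMM, near the 84.9% lower of all start sites.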

How the data were processed

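Per the submitters' processing notes, reads were handled with Trim Galore 0.4.3, BWA 0.7.17, SAMtools 1.9, deepTools 3.0.1, MACS2, bedtools 2.26 and DESeq on hg38; their roles and settings, and any shift of read ends, are not given in the sources used here. The deposited table holds whole-number counts per site and library, and the authors' log2 fold changes and adjusted p-values. The authors' deposited peak lists hold a score, a fold enrichment and −log10 p and q per peak, called per library; only peak positions were used, to count libraries with a peak on a site.

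Counts were fitted with edgeR 4.0.16 (R 4.3.3) on all 6 libraries in 3 groups after the default filter (minimum count 10), which kept 177759 sites; the biological coefficient of variation was 0.166 over sites and 0.0736 over locus sums. Replicates differed by more than sampling noise (chi-square per degree of freedom 4.95, 4.41 and 3.50). The fit was tested on simulated data. Coordinates are 1-based on GRCh38; genes come from a RefSeq table of GRCh38.p14 without exons, so exon or intron is not given. Strands of ITGAX and ITGB2 came from general knowledge. Locus sums used window counts with the site table's scaling. Alternatives were 4 scalings, no filter, DESeq2 1.42.0, a replicate block, only the compared groups, each library left out, a stricter call and windows of 0 and 100 kb. Named sites were each member's start site (on the gene start, or the nearest within 1000 bases) and its largest called increases and decreases with a mean of at least 1 CPM and no overlap between libraries. Other sites were named after their values were seen. Members and lists were chosen with earlier results of these data known.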

Additional observations from a re-analysis of the deposited data

How the results depend on the processing

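Counts moved mainly with the scaling, the window and the call rule; the causes were not tested. Sites lost at 6 h numbered 25, and 10 with TMM from shared peaks, 9 under the stricter call (adjusted p under 0.01 and absolute log2 above 1), and 7 and 50 in windows of 0 and 100 kb. Gained sites numbered 21 at 6 h and 41 at 72 h in gene bodies alone. At 72 h 49 sites were lost, and 27 with total counts, 11 with shared peaks, 30 under the stricter call, and 17 and 83 in windows of 0 and 100 kb. From 6 h to 72 h, 44 sites rose, and 67 with total counts, 87 with shared peaks, and 20 and 70 in windows of 0 and 100 kb. The 38 sites that fell were 16 with total counts, 6 with shared peaks, 23 with loess offsets, 9 under the stricter call and 12 in gene bodies alone. Leaving out a library gave 29 (without replicate 1 of 72 h) to 53 rising sites and 18 (without replicate 2 of 6 h) to 42 falling ones, with 22 and 21 falling without replicates 1 and 2 of 72 h.

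Changed loci at 6 h numbered 3, and 6 with total counts, 8 with shared peaks, 7 with loess offsets, 1 under the stricter call and 6 from gene bodies alone. At 72 h they numbered 6, and 10 with loess offsets, 2 under the stricter call and 10 with windows of 100 kb. Of the 7 loci changed from 6 h to 72 h, 0 passed the stricter call. That rule adds a minimum change, and edgeR gave 7 without it.

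Directions turned for these log2 changes. The ITGA5 start site was 0.35 at 72 h with shared peaks, and the PDK1 start near ITGA6 was 0.29 with loess offsets. Locus sums at 72 h with total counts, shared peaks and loess offsets were 0.33, 0.80 and 0.88 for ITGA5, 0.26, 0.73 and 0.54 for ITGA6, 0.11, 0.58 and 0.32 for ITGAV, and 0.30, 0.77 and 0.66 for ITGB1. That of ITGB2 was 0.42 with shared peaks and 0.40 with loess offsets, and that of ITGA6 at 6 h was 0.25 with shared peaks. The fall of the ITGA5 and ITGB1 sums at 72 h, not called in the main edgeR fit with TMM (adjusted p = 0.173 and 0.089), was called in some settings. Among these were RLE size factors, DESeq2 and the replicate block. These sums were −0.35 and −0.38 with RLE size factors, and −0.17 and −0.19 with the replicate block.

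Replicate numbers gave no sign of pairing, since the replicate differences of the groups correlated at 0.082, 0.053 and 0.085 over sites. With the replicate block, changed loci at 6 h numbered 6, and the other counts stayed within 1.5 times. With 2 libraries a group, exact permutation of labels cannot go below 0.333. Sites under about 1 CPM rest on few reads, so small changes there were not detectable.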

Other observations

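The authors' deposited table gives its own log2 fold changes, and their sign was the same as that computed here at 181 of 190 member sites at 6 h and 184 at 72 h. In the authors' deposited table the class downEarly held 12 member sites, and all 12 had an authors' log2 fold change above 0 at 72 h. Over the whole table that class had a median authors' log2 fold change of 2.257 at 72 h, and upLate one of 2.28, so the class names were not used for direction.

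Deposited peaks covered more member sites late than early. In the ITGA2 window each 0 h library had a peak on 6 sites, while the 6 h libraries covered 10 and 12 and the 72 h libraries 22 and 19. There 13 of its 24 sites had a peak in both 72 h libraries and in neither 0 h library. The ITGB5 window had 10 such sites of 27 and the ITGA6 window 9 of 22, while that of ITGA5 had 5 of 27, that of ITGB1 5 of 20 and that of ITGA4 0 of 1. Over all members the share was 34.5%, near the 33.1% of all sites, and the lists of 72 h were also the longest, so these numbers describe the lists.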
